A study of Homo sapiens with 36 samples.

Results

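MTF2 (PCL2) ChIP-seq in DU145 cells was compared between shPHF19L#4 cells, depleted of the long PHF19 isoform PHF19L, and shCTR cells, with 2 replicates of each condition. The 4 MTF2 samples are 4 of the 36 samples of the series. Described are all 2546 regions of the authors' deposited DiffBind table for MTF2, out of 7756 regions in the 5 DiffBind tables of the series, and the 4 MTF2 peak lists. DU145 is an established cell line from a prostate cancer metastasis, and both conditions carry a pLKO vector and were selected with puromycin, with a control vector in shCTR and short hairpin RNA number 4 against PHF19L in shPHF19L#4. In these 4 samples, which hold 1 hairpin against PHF19L, the effect of PHF19L loss and any other effect of that hairpin cannot be told apart. Chromatin was precipitated with an MTF2 antibody from Proteintech, with an antibody against fly H2Av for the spike-in. No expression value of PHF19 or MTF2 was analysed here, so the depletion itself could not be checked in these 4 samples.

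MTF2 and PHF19 are Polycomb-like proteins, accessory subunits of Polycomb repressive complex 2 (PRC2), whose enzyme EZH2 methylates lysine 27 of histone H3 (H3K27me3). A Polycomb-like protein carries a Tudor domain, which can bind methylated histone H3, and an extended homology domain, which binds DNA that holds unmethylated CpG dinucleotides. PRC2 is known for its place at CpG islands of silent developmental genes, such as those of transcription factors and signalling ligands. Peaks are the places where precipitated DNA gave an excess of reads over background, and DiffBind counts the reads of every library over 1 set of regions.

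The level of a region is the authors' group mean of both replicates on the log2 scale (named concentration in DiffBind), and the difference is the level in shPHF19L#4 minus that in shCTR. A difference of 1 is a doubling. The table lists only regions under the authors' P threshold of DiffBind, so regions without a change are not in it, and it has no value per replicate. What can be set side by side per replicate is therefore the peak call in each of the 4 lists and, in replicate 2, the MACS score of the peak (a transformed P value, higher for stronger peaks). Coordinates are hg19 (GRCh37), counted from 1. A promoter region reaches within 2.5 kb of a protein-coding start site, a genic region lies in a gene without doing so, and a distal region lies outside both. Regions are named by the nearest start site, which does not make that gene a target.

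The 200 bases with the most CpG dinucleotides outside annotated exons are shown for regions at both ends of the change, because across all regions CpG density ordered the differences more clearly than level or width did, though not in genic regions. This pattern, and the windows printed, were chosen after the values and sequences were seen, and 2 windows made of repeats, at MAGI2 and NPAS3, were left out. The sequences are from the forward strand of GRCh37, and capitals mark each CG. The promoters of ADGRL1 and MEX3D had the largest promoter differences, the region nearest to POU3F2 the largest distal one, KCNMB4 the smallest positive promoter difference, RPF1 the 1 promoter difference below 0, and the region nearest to UBE2T the lowest of all.
ADGRL1 (chr19:14316306-14316505): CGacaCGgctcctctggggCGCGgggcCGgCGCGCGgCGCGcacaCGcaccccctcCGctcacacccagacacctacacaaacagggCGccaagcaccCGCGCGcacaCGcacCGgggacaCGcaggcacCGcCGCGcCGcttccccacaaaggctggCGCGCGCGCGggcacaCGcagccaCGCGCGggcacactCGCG
MEX3D (chr19:1567176-1567375): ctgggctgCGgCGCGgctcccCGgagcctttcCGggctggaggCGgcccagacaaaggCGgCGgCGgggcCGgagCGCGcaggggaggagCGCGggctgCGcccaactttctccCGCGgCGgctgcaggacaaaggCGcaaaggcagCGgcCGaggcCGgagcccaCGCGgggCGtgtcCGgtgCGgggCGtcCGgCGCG
KCNMB4 (chr12:70759507-70759706): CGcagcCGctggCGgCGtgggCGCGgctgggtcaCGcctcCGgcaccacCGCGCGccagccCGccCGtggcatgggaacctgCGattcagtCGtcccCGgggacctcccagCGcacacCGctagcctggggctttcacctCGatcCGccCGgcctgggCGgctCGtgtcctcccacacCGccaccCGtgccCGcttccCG
RPF1 (chr1:84945193-84945392): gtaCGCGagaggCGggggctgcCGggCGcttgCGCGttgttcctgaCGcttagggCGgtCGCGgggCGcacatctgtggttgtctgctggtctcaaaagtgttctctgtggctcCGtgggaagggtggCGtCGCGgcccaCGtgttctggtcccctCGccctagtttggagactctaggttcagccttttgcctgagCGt
POU3F2 (chr6:98974398-98974597): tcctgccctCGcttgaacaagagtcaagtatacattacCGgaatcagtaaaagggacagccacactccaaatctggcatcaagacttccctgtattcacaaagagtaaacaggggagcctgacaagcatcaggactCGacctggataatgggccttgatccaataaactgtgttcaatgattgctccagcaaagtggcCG
UBE2T (chr1:202298790-202298989): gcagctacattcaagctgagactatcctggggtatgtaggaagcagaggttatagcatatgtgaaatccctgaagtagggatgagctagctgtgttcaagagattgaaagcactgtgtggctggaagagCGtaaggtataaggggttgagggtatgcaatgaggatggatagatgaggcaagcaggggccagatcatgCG
The windows of ADGRL1 and MEX3D hold 34 and 31 CG, those of KCNMB4 and RPF1 27 and 19, and those of POU3F2 and UBE2T 4 and 2. Over the 2502 regions with such a window the median was 22.5 CG. The median was 28 in 38 regions with a difference of at least 1.5, 13 in 93 regions with a positive difference under 0.5, and 5 in the 7 regions below 0. KCNMB4 and POU3F2 show that single regions can depart from this order. The 2 windows left out run against it as a pair. MAGI2, with the largest genic difference (1.57), holds 4 CG, and NPAS3, with the smallest positive genic difference (0.28), holds 8.

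MTF2 levels were higher in shPHF19L#4 at nearly all listed regions, and the size of the difference varied less than the level. The differences ran from -1.47 to 2.24, whereas control levels ran from 2.90 to 11.96. The quartiles of the differences were 0.73 and 1.02, around a median of 0.87. A difference of at least 1 was reached by 730 regions (28.7% of the 2546), and 2 regions had a difference of -1 or lower. Below 0 were 7 regions (0.275%). Since the table is limited to regions past a P threshold, these shares describe the table and not all MTF2 sites. The scaling behind the levels, by library size or by the fly spike-in, is not stated for DiffBind, and the median MTF2 difference may depend on it. With the differences centred on their median, 0.157% of regions (4) reached 1, and the 7 regions below 0 all lay at -1 or lower. The replicates stood apart before any comparison of the conditions: the shCTR lists held 2516 peaks in replicate 1 and 32254 in replicate 2, and the shPHF19L#4 lists 4216 and 34623. Most region boundaries of the table follow the replicate 1 peaks, so that a replicate 1 peak is present by construction in most of them.

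**Figure D1:**
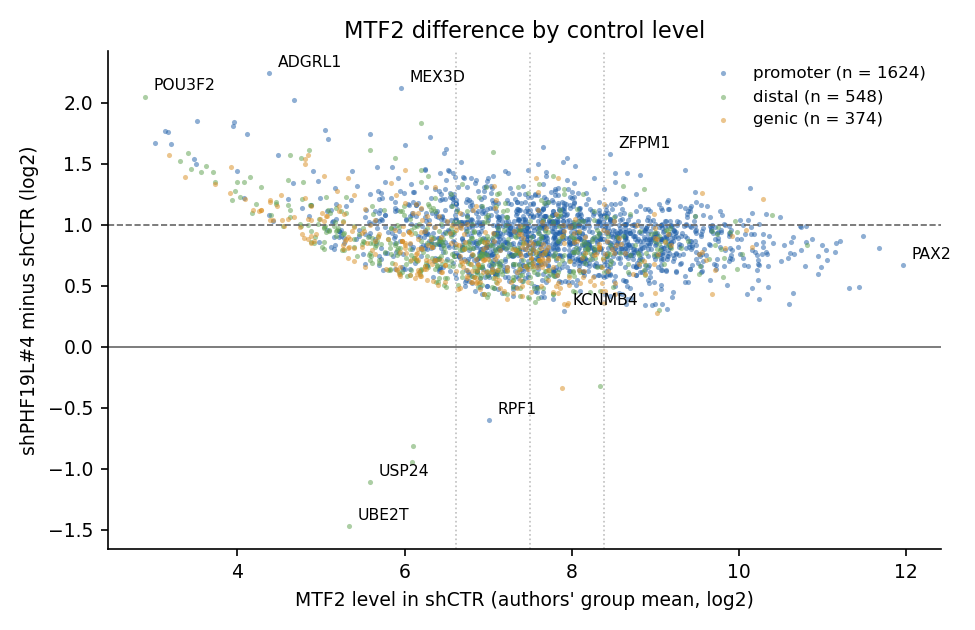
Difference in MTF2 level (shPHF19L#4 minus shCTR, log2) against the level in shCTR (authors' group mean, log2) for the 2546 listed regions, coloured by position class. Dotted lines mark the quartiles of the control level and the dashed line a difference of 1. The lower edge of the positive differences falls as the level rises, in a table limited by the authors' P threshold.

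The largest promoter differences were at genes of low MTF2 level in shCTR. ADGRL1, which encodes the adhesion receptor latrophilin 1, went from 4.38 in shCTR to 6.62 in shPHF19L#4, a difference of 2.24 (chr19:14316120-14317199, start site inside). Neither shCTR list had a peak there. Both shPHF19L#4 lists had one, with a score of 768 in replicate 2. A second region upstream of ADGRL1 went from 3.13 to 4.90, a difference of 1.77. MEX3D, which encodes an RNA-binding protein, went from 5.96 to 8.08 (chr19:1566499-1568319), a difference of 2.12. Its replicate 2 score was 99.7 in shCTR and 2000 in shPHF19L#4, and in replicate 1 only shPHF19L#4 had a peak. B4GALNT4, a glycosyltransferase gene, followed with 4.68 and 6.70 (chr11:369377-370931), a difference of 2.02, with a score of 846 in shPHF19L#4 replicate 2 and no shCTR peak.

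The other promoter regions among the 8 largest lay at TMEM200A (1.85), at the protocadherin gene PCDH19 (1.84 and 1.81, a pair of neighbouring regions) and at PRDM16 (1.78), a zinc finger regulator of transcription. PRDM16 went from 5.05 to 6.83 (chr1:2986179-2987358, in an intron), with peaks in both shPHF19L#4 lists and in neither shCTR list. Of these 8 regions, 7 had 4.99 or more CpG per 100 bp, and the intronic region of TMEM200A had 0.333. All 8 were in the lowest quartile of control level, at 6.61 or lower. None overlapped a PHF19 region, where 2.66% of all regions in that quartile do.

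**Figure D2:**
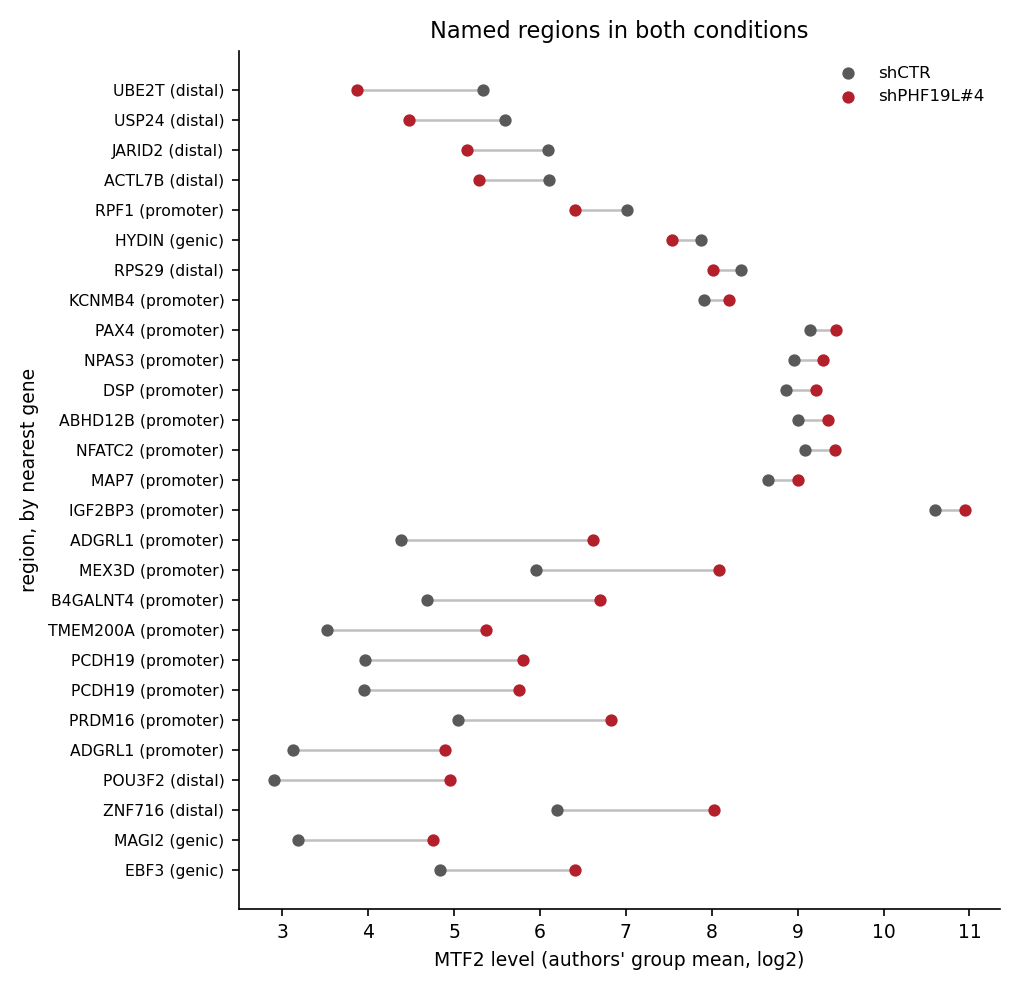
MTF2 level (authors' group mean, log2) in shCTR and shPHF19L#4 cells at named regions, with the nearest gene and position class. From the top are the 7 regions below 0, the 8 promoter regions with the smallest positive difference, the 8 with the largest, and 2 distal and 2 genic regions with the largest difference. ADGRL1 rises from 4.38 to 6.62, while IGF2BP3 goes from 10.60 to 10.95.

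Promoters with the smallest positive differences carried MTF2 in shCTR already. KCNMB4, a regulatory subunit of calcium-activated potassium channels, went from 7.91 to 8.20 (chr12:70758852-70761649), a difference of 0.29. Its replicate 2 score was 1042 in shCTR and 1703 in shPHF19L#4, and replicate 1 had a peak in shPHF19L#4 only. PAX4, a paired-box regulator of pancreatic islet cells, went from 9.14 to 9.45 (chr7:127253900-127261610), a difference of 0.31. All 4 lists had peaks at PAX4, which covered 6933 bp in shCTR and 7339 bp in shPHF19L#4 in replicate 1. The next were NPAS3 and the desmosome gene DSP at 0.34, and ABHD12B, NFATC2, the microtubule-binding MAP7 and the RNA-binding IGF2BP3 at 0.35. IGF2BP3 had a level of 10.60 in shCTR, the highest of these 8. All of these promoters but NPAS3 overlapped a PHF19 region, which is near the 80.5% of all listed promoters in the highest quartile of control level, where 7 of them lie.

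Regions with a negative difference were mostly distal and poor in CpG. The lowest lay 11.9 kb from UBE2T, a ubiquitin-conjugating enzyme gene, at a level of 5.34 in shCTR and 3.87 in shPHF19L#4, a difference of -1.47 (chr1:202298773-202299489). It had a peak in shCTR replicate 2 alone, with a score of 55.4 where the lowest score in the list is 50. The region 228 kb from USP24 went from 5.59 to 4.48 (-1.11), that 513 kb from JARID2 from 6.09 to 5.15 (-0.94), and that 276 kb from ACTL7B from 6.10 to 5.29 (-0.81). These 3 had peaks in both shCTR lists and in neither shPHF19L#4 list, with replicate 2 scores of 56.0, 59.0 and 63.0. JARID2 is itself a PRC2 accessory gene, but its distance is too long for a promoter assignment.

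RPF1, a ribosome biogenesis gene, was the 1 promoter below 0, at 7.01 and 6.41 (chr1:84943700-84945664, start site inside). Its replicate 2 score was 528 in shCTR and 246 in shPHF19L#4, and in replicate 1 only shCTR had a peak. An intronic region of HYDIN, a gene of motile cilia, had a difference of -0.34, with a score of 287 in shCTR and 64.4 in shPHF19L#4. The region 147 kb from RPS29 had -0.32, with 199 and 175. All 7 fell in the lowest quartile of CpG density.

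Differences were largest in the lowest quartile of control level. From the lowest to the highest quartile the median difference was 0.94, 0.82, 0.86 and 0.85, and a difference of at least 1 was reached by 42.1%, 25.7%, 28.5% and 18.2% of regions. Across the 2546 regions Spearman's rank correlation of difference and control level was -0.17. It was -0.34 within the lowest quartile and 0.01, 0.00 and -0.02 within the others. The control level is part of the difference, and with the mean level of both conditions in its place the rank correlation was -0.07. Within promoter, distal and genic regions the correlation was -0.23, -0.26 and -0.39 with the control level, and -0.12, -0.16 and -0.31 with the mean level. Within the quartiles of control level the correlation with the mean level was -0.10, 0.48, 0.47 and 0.19, so the values within quartiles depend on which level is used. The smallest positive difference was 0.49 in the lowest quartile and 0.28 in the highest, so smaller differences are listed at high levels than at low ones. How far the authors' P threshold makes the relation was not tested.

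In each quartile of control level 1 promoter stood at each end. The largest promoter differences after ADGRL1 in the lowest quartile were LRRC4 in the second (6.67 to 8.18, difference 1.51), the potassium channel gene KCNF1 in the third (7.66 to 9.30, 1.64) and ZFPM1, a cofactor of GATA factors, in the highest (8.45 to 10.03, 1.58). All 3 lacked a peak in shCTR replicate 1 and had one in shPHF19L#4 replicate 1. In replicate 2 the score at KCNF1 was 488 in shCTR and 3100 in shPHF19L#4, and that at LRRC4 was 322 and 2166. The smallest in the same order were CNTNAP2 (6.61 to 7.17, 0.56), RPF1, KCNMB4 and PAX4. CNTNAP2 is a neuronal cell adhesion gene, with a score of 430 in shCTR and 1011 in shPHF19L#4.

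Width and control level went together across regions (rank correlation 0.89), and the rank correlation of difference and width was -0.15, with -0.13 in promoter, -0.31 in distal and -0.40 in genic regions. Within the quartiles of control level it was -0.24, 0.00, -0.02 and 0.04, from the lowest up. The 5 widest regions were all at promoters of developmental regulators or of a Polycomb gene. PAX2, a paired-box gene of kidney development, had the widest at 20525 bp and went from 11.96 to 12.63 (chr10:102495463-102515987), a difference of 0.67. PAX7 went from 10.99 to 11.82 (0.83), FOXF1 from 10.73 to 11.72 (0.99), the PRC1 subunit gene CBX8 from 11.67 to 12.48 (0.81), and UNCX from 10.62 to 11.48 (0.86). All 5 had a score of 3100, a ceiling that few scores exceed, in both replicate 2 lists, so that score could not show a difference there. FOXF1 had no peak in the shCTR list of replicate 1, although its replicate 2 peaks covered 16282 bp in shCTR and 16595 bp in shPHF19L#4.

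Promoter regions had slightly larger differences than distal and genic ones. The median was 0.90 in 1624 promoter regions, 0.82 in 548 distal and 0.80 in 374 genic regions, and a difference of at least 1 was reached by 32.5%, 22.6% and 21.1%. The order of promoter over distal held in each quartile of control level, at 1.03 and 0.89 in the lowest and 0.86 and 0.81 in the highest. It did not hold in each quartile of CpG density, where the promoter median minus the distal one was 0.05, 0.02, -0.025 and -0.04, from the lowest up. The 189 regions at least 100 kb from a start site had a median of 0.83.

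The largest distal difference was on chromosome 6, 308 kb from POU3F2, a neuronal POU factor gene (2.90 to 4.95, difference 2.05). It had a peak in shPHF19L#4 replicate 2 alone, with a score of 221. A region 419 kb from ZNF716 went from 6.20 to 8.03 (1.83), with a replicate 2 score of 255 in shCTR and 2491 in shPHF19L#4. Regions near CDH26 and the Y-linked TMSB4Y (1.61 each) and ARID1B (7.06 to 8.66, 1.60), a chromatin remodelling gene, followed. The largest genic differences were in introns of MAGI2 and EBF3 (1.57 each), a region nearest to UTF1 (1.54), one in DTX1 (4.81 to 6.31) and one nearest to AF131215.5 (1.47). EBF3, a transcription factor gene, had no peak in either shCTR list and a score of 3100 in shPHF19L#4 replicate 2. At the other end of the distal regions were those near MELK (0.30), MLN (0.37) and the homeobox gene MEIS2 (0.40). MELK was at odds with its own score: its level went from 9.04 to 9.34, while its highest replicate 2 score went from 660 in shCTR to 57.3 in shPHF19L#4. The 2 scores are not of like peaks, since the MELK region held 2 replicate 2 peaks in shCTR and 1 in shPHF19L#4. Its bases under a peak went from 4694 to 7701 in replicate 1 and from 10241 to 10336 in replicate 2. The 3 genic regions with the smallest positive differences were all near NPAS3 on chromosome 14 (0.28, 0.34 and 0.35).

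CpG density was looked at after the values were seen, as 1 of several groupings (level, width, position, CpG, GC, chromosome, and overlap with PHF19, EZH2, SUZ12 or H3K27me3). It ordered the median MTF2 differences within every position class and every quartile of level. From the lowest to the highest quartile of CpG per 100 bp the median difference was 0.75, 0.83, 0.92 and 0.98, and a difference of at least 1 was reached by 16.2%, 18.6%, 32.4% and 47.6%. Spearman's rank correlation of difference and CpG density was 0.37 across 2546 regions, 0.33 in promoter, 0.23 in genic and 0.35 in distal regions. In the highest quartile of control level the medians were 0.68, 0.82, 0.88 and 0.92, and in the lowest 0.87, 0.92, 1.01 and 1.07. In the upper quartiles of CpG density the gap of promoter and distal regions was gone: in the highest, the medians were 0.98 in 536 promoter and 1.02 in 67 distal regions. GC content gave a rank correlation of 0.41, and CpG density and GC content could not be told apart here. Libraries can differ in their yield of GC-rich DNA, and the part of this was not tested. Neighbouring regions and regions of the same 4 libraries are not independent, so no P value is given.

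**Figure D3:**
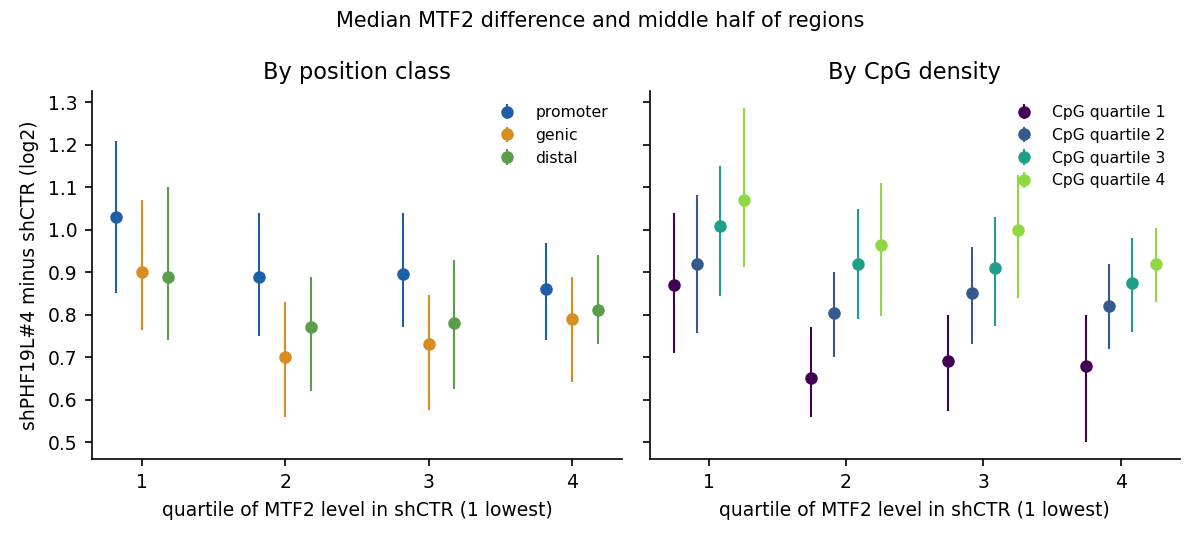
Median difference in MTF2 level (shPHF19L#4 minus shCTR, log2) by quartile of level in shCTR, for position classes on the left and quartiles of CpG density on the right. Bars span the quartiles of the regions, not an error. In each quartile of level the median rises with CpG density, from 0.65 to 0.97 in the second quartile.

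Regions that overlapped a PHF19 region of shCTR cells had smaller differences than the rest. The median was 0.82 in 872 regions with PHF19 and 0.89 in 1674 without, and a difference of at least 1 was reached by 17.4% and 34.5%. Regions with PHF19 had higher control levels (median 8.59 against 6.97). Within the highest quartile of control level the medians were 0.83 in 505 regions with PHF19 and 0.88 in 126 without, and in the third quartile 0.81 in 249 and 0.89 in 390. Regions without an H3K27me3 peak in either shCTR replicate were few, 215, and had a median of 1.02, against 0.85 in the 1886 with one in both. ADGRL1, MEX3D, B4GALNT4 and PRDM16 are among the former, which had 7.38 CpG per 100 bp in the median and a control level of 6.26. So are 4 of the 7 regions below 0, those near UBE2T, USP24, JARID2 and ACTL7B. A listed EZH2 region overlapped 1970 MTF2 regions (77.4%), and 1929 of the 2408 EZH2 regions (80.1%) overlapped an MTF2 region. At ADGRL1 the EZH2 level was 2.15 in shCTR and 5.65 in shPHF19L#4, at MEX3D 4.52 and 7.05, at KCNMB4 5.82 and 6.75, and at IGF2BP3 9.63 and 9.92. None of the 7 MTF2 regions below 0 had a listed EZH2 region. Listed EZH2 regions are those under the authors' P threshold for a change, so this does not show a lack of EZH2. The share with one was 47.9% in the lowest quartile of CpG density, where all 7 lie. It was 38.5% in the lowest quartile of control level, where 4 of them lie, and 23.7% in regions lowest in both.

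Of 20136 protein-coding gene names, 1597 (7.93%) had a listed MTF2 region at the promoter, with a median of the largest difference per gene of 0.91, and 33.5% of these reached 1. Of 13 PRC2 subunit genes, EPOP alone had one (7.69%, near the share of all genes), at 8.77 in shCTR and 10.02 in shPHF19L#4 (difference 1.25). Neither MTF2 nor PHF19 had a listed region at its promoter. Among PRC1 genes, BMI1 went from 5.59 to 7.33 (1.74), among the largest of all promoters, with a replicate 2 score of 186 in shCTR and 1094 in shPHF19L#4. CBX8 had 0.88 at the region with the larger difference of its 2.

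Of 54 lineage transcription factor genes, 32 (59.3%) had a promoter region, with a median of 0.82. Of these 32, 6 (18.8%) reached 1, against 33.5% of all genes with a listed promoter region. SOX3 (6.05 to 7.21, difference 1.16), SOX14 (1.14), TBX1 (1.11) and FOXA2 (1.05) were the largest, and GATA6 (9.20 to 9.61, 0.41) and PAX5 (10.35 to 10.84, 0.49) the smallest. The list's median control level of 9.43 was above the 7.81 of all genes. Of 45 genes of developmental signals, 30 (66.7%) had a promoter region, with a median of 0.90, and 8 of these (26.7%) reached 1. BMP2 (7.60 to 8.84, 1.24), the Notch effector HES5 (1.14), FGF19 (1.09) and GDF6 (1.06) were the largest, and BMP4 (10.22 to 10.77, 0.55) and WNT7A (9.88 to 10.58, 0.70) the smallest. The BMP2 score in replicate 2 was 1170 in shCTR and 3100 in shPHF19L#4.

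HOX genes, which set position along the body axis, had 8 of 39 promoters listed, with a median of 0.77. HOXD11 (7.44 to 8.69, difference 1.25) was the 1 of the 8 (12.5%) that reached 1, where 33.5% of all genes with a listed promoter region did. It was followed by HOXC11 (0.95), HOXD3 (0.84) and HOXD10 (0.81), while HOXB7 (0.54), HOXA11 and HOXB8 (0.61 each) were the smallest. Of 10 dual-specificity phosphatase genes, 4 were listed, with a median of 1.11: DUSP8 (8.01 to 9.16, 1.15), DUSP2 and DUSP9 (1.11 each) and DUSP4 (0.75). These 4 had 8.99 CpG per 100 bp in the median, against 5.63 over all genes with a listed promoter region. Of 20 cell cycle genes, 5 were listed, with a median of 0.85, from CDKN1C (6.99 to 8.35, 1.36), an inhibitor of cyclin-dependent kinases, over CDK4 (0.92), CCND2 (0.85) and CDK6 (0.64) to CCNA1 (0.53). Of 22 genes of hypoxia and angiogenesis, CXCR4 (0.90), FLT1 (0.84) and LOX (0.69) were listed, with a median of 0.84. None of the 15 housekeeping genes had a listed promoter region, which is near the share of all genes (7.93%) in so short a list.

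Genes with sites that the study names had MTF2 regions at several promoters, none of those given here with a difference of 1. A difference of at least 1 was reached by 33.5% of all genes with a listed promoter region. Among promoter regions in the highest quartile of control level the share was 19.5%. The list's median control level was 9.52, against 7.81 over all genes. The values given for the study's genes are of the promoter region with the largest difference, which need not be the site itself. The genes were chosen by the study on these cells and are no independent evidence. EPHB3 (7.65 to 8.63, difference 0.98) was the largest of these promoters, without a PHF19 region, while 4 distal regions near EPHB3 that overlap PHF19 had 0.68, 0.71, 0.75 and 0.93. At promoters it was followed by CXCR4 at 0.90 and EFNA3, NDRG2 and SHH at 0.88. IGFBP3 had 0.83, DUSP4 and MLLT6 0.75, WNT7A 0.70, LOX 0.69, BMP4 0.55 and CYP24A1 0.53. ATF3, a stress-response transcription factor gene, was the smallest (10.24 to 10.63, 0.39). ADM, EGLN3, HEY1, HMGA2, SOX9 and GATA2, the last a negative control of the study, had no listed MTF2 region at the promoter.

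In replicate 2 the score could be set side by side at 2449 regions with a peak in both lists. It was higher in shPHF19L#4 at 2141 (87.4%), equal at 281 and lower at 27. Scores pile up at a ceiling of 3100 that few exceed, and all 281 equal values lay there, while both values were at or above it at 20 of the 27. With both values under the ceiling, 1304 of 1311 regions were higher, with a median log2 ratio of 1.80. The 7 others were RPF1, HYDIN, RPS29, MELK, CACNA2D1 (270 in shCTR and 233 in shPHF19L#4) and 2 of the genic NPAS3 regions. At MELK and these 2 NPAS3 regions the shCTR score is the higher of 2 peaks, set against 1 peak in shPHF19L#4. In replicate 1, which has no score, the bases under a peak (0 where a list has none) were more in shPHF19L#4 at 2366 of 2501 regions (94.6%) and fewer at 135. Most boundaries follow replicate 1 peaks, and a region with a replicate 1 peak in 1 list alone could go only 1 way. Of all 2546 regions, 1411 had no shCTR peak in replicate 1 and 57 no shPHF19L#4 peak. Both counts include the 45 regions without a peak in either replicate 1 list, which are outside the 2501. The 94.6% therefore does not show the direction in replicate 1. Both shares come from libraries that entered the table and are no separate support.

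**Figure D4:**
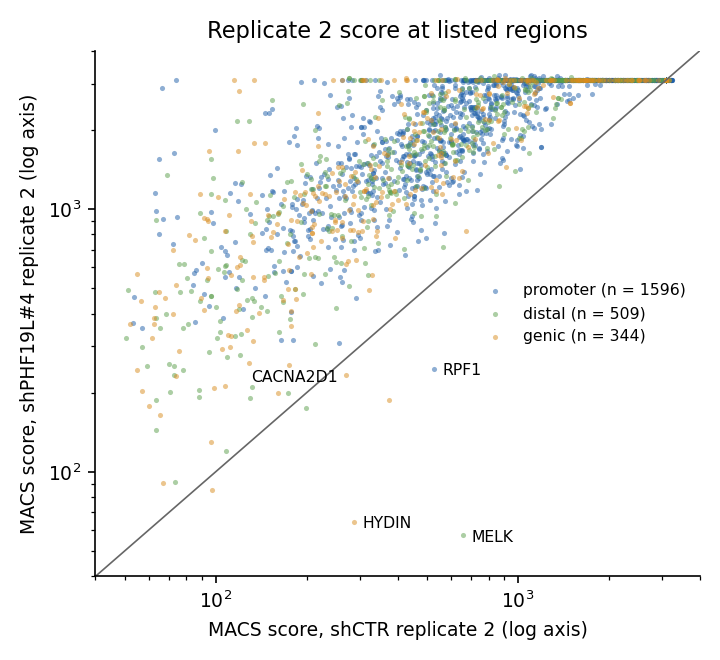
Highest MACS score in each listed region in replicate 2, shCTR on the horizontal and shPHF19L#4 on the vertical axis, both on log scales, for the 2449 regions with a peak in both lists. The line marks equal scores. Points gather at the ceiling of 3100, and RPF1, HYDIN, MELK and CACNA2D1 lie below the line.

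Counted per library, the rise in peaks was smaller than the gap between the replicates. The mean log2 difference in peak number was 0.42, with 0.74 in replicate 1 and 0.10 in replicate 2 (0.69 on average with replicate 2 limited to scores of at least 100, 9497 peaks in shCTR and 14748 in shPHF19L#4), while replicate 2 lists exceeded replicate 1 lists by 3.36 on average. An exact permutation test over the 4 libraries, two-sided, gave P = 0.667 (adjusted 0.889 over 4 measures), where 2 against 2 cannot go below 0.333. Covered length had a mean log2 difference of 0.61 (5.98 and 46.6 Mb in shCTR, 11.0 and 59.0 Mb in shPHF19L#4) with the same exact P of 0.667. Median peak width had 0.13 (exact P = 0.667), with 0.128 in replicate 1 and 0.123 in replicate 2. With the replicate number as a block its exact permutation P was 0.5, the smallest that 2 pairs allow. The share of promoter peaks had 0.09 (exact P = 1). That share was 36.8% and 30.1% in shCTR and 42.4% and 29.5% in shPHF19L#4, so it went up in replicate 1 and down in replicate 2. The paper calls the replicates biological, and the labels carry no statement on separate cultures. The P values measure the spread between these samples alone.

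Chromosome 14 held 627 of the 2516 replicate 1 peaks in shCTR (24.9%) and 621 of the 4216 in shPHF19L#4 (14.7%), but 5.66% and 4.95% of the replicate 2 peaks. Between 30 and 53 Mb of it, bounds set after the crowding was seen, lay 564 and 501 of the replicate 1 peaks. In the shCTR list of replicate 1, 7.81% of the chromosome 14 peaks were at promoters, against 46.4% elsewhere. The shCTR lists of EZH2 and SUZ12 held 37.8% and 48.1% of their replicate 1 peaks there, and 3.48% and 3.02% of those of replicate 2. The PHF19 lists held 7.28% and 6.62% there, and the H3K27me3 lists 4.56% and 4.08%. The 99 listed MTF2 regions of chromosome 14 had a median difference of 0.72, against 0.87 elsewhere, and 20 of the 95 regions with a positive difference under 0.5 lay there, NPAS3 and ABHD12B among them. The median over all other chromosomes was the same as over all, and the mean log2 difference in peak number without chromosome 14 was 0.52. Inputs were not analysed here, and a change in copy number was not tested.

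**Figure D5:**
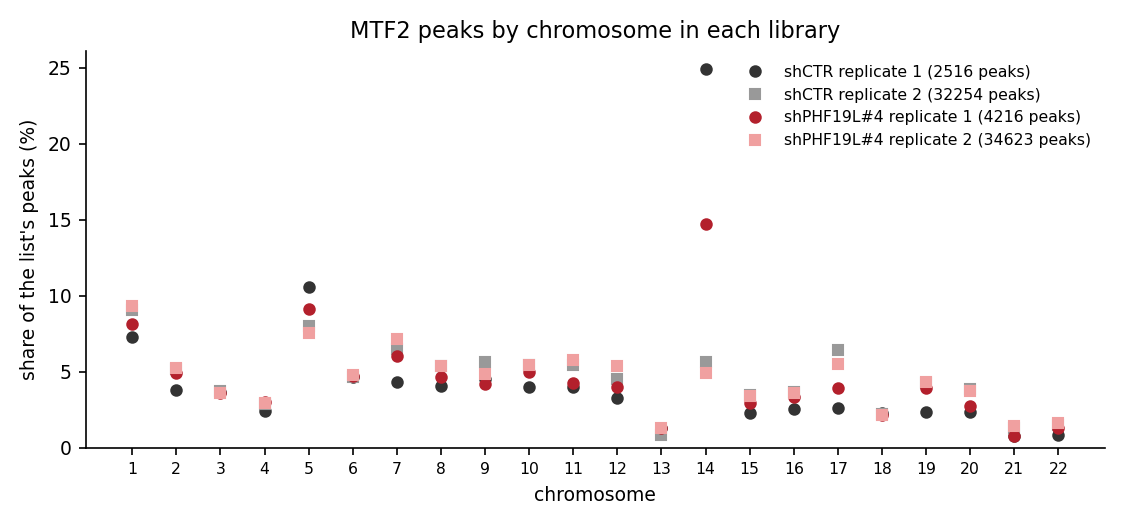
Share of each MTF2 peak list on chromosomes 1 to 22 (percent of the list's peaks) for the 4 libraries. Chromosome 14 holds 24.9% and 14.7% of the replicate 1 peaks of shCTR and shPHF19L#4, and 5.66% and 4.95% of the replicate 2 peaks.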

How the data were processed

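MTF2 ChIP-seq of DU145 shCTR and shPHF19L#4 cells (2 replicates each, MTF2 antibody from Proteintech, fly spike-in) was examined from files the authors deposited. The authors mapped reads with Bowtie to the human and fly genomes together (hg19 and dm3), kept reads with 1 hit, called peaks with MACS in each replicate, and ran DiffBind on both replicates of both conditions. The log2 levels are the authors' group means from DiffBind, deposited without a value per replicate, and no scaling by spike-in is named for them. The score of replicate 2 peaks is the MACS score as deposited by the authors; replicate 1 lists hold positions only, with starts counted from 1. The columns of fold change, P value and FDR hold the authors' own comparison and were not used. Read totals are not in the lists, so the depth is unknown and no counting interval is given.

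Positions were compared by overlap of any base, with genes of GENCODE release 44 mapped to GRCh37 (20163 protein-coding genes, 78703 start sites). CpG dinucleotides were counted in GRCh37. Interval functions were tested on simulated data. Python 3.11.15, pandas 2.3.3, NumPy 2.4.6, pysam 0.24.0, samtools 1.23.1 and matplotlib 3.10.9 were used. Peak measures were compared by an exact permutation test over the libraries with Benjamini-Hochberg adjustment over 4 measures; differences over regions were described without a test.

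Named were every region below 0, the 8 largest and 8 smallest positive promoter differences, the 5 largest and 3 smallest distal and genic ones, the extremes of each level quartile, the 5 widest regions, the sites named by the study, and up to 4 largest and 2 smallest genes of each list. Regions singled out for CpG density, for a lower replicate 2 score or for chromosome 14 were chosen after their values were seen. Results that need an item withheld for evaluation were left out. The members and lists were chosen with earlier results of these data known. Inputs, RNA-seq and PHF19 ChIP of shPHF19L#4 cells were not used here.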

Additional observations from a re-analysis of the deposited data

How the results depend on the processing

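Of 37 alternatives outside the gene lists, 25 counted as the same, as did all 18 for gene list medians. For peak number this asked for the sign alone, and for the promoter and distal gap the tolerance of 0.1 exceeds the gap, so these counts do not show a stable size. The mean log2 difference in peak number was 0.42 with the replicate number as a block as well (exact permutation P = 0.5, the smallest that 2 pairs allow), and the labels give a shared replicate number without stating a batch. It was 0.69 with replicate 2 limited to a score of at least 100 and ran from 0.10 to 0.74 without each replicate. The ratio of merged peaks called in both replicates was 2.13, and the ratio of peak numbers in either replicate alone 1.07 and 1.68. The share of regions past a difference of 1 was 91.2% at a threshold of 1.5-fold and 0.157% with differences centred on the median. The gap of promoter and distal medians was 0.08, and 0.02, -0.025 and -0.04 in CpG quartiles 2 to 4. The rank correlation of difference and control level was -0.0656 with the mean level. The rank correlation of difference and width was -0.000288, -0.0214 and 0.0395 in level quartiles 2 to 4, and -0.00625 with the width of the replicate 1 shCTR peak. The rank correlation with CpG density was 0.23 in genic regions. The tolerance stands in for a replicate spread that the table lacks. The causes were not tested. Analyses by CpG density and without chromosome 14 were chosen after seeing the data. Unknown depth, the score ceiling and the P threshold of the table limit what can be read from small differences.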

Other observations

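High MTF2 levels and replicate 1 peak calls did not always go together. In the highest quartile of control level, 99 regions had no peak in the shCTR list of replicate 1, among them PAX9 (level 10.79 in shCTR, 11.45 in shPHF19L#4), FOXF1 (10.73 and 11.72), UNC5B (10.16 and 10.95) and INSM2 (10.05 and 10.78). All 4 had a replicate 2 score of 3100 in both conditions and a replicate 1 peak in shPHF19L#4 over the whole region, 11752 bp at PAX9 and 10601 bp at UNC5B. PAX9 and INSM2 lie between 30 and 53 Mb of chromosome 14, where the replicate 1 peaks crowd. So does ATL1 (10.09 and 10.52), which is also among the 99 and ranks above INSM2 in control level. In the same quartile 2 regions had no peak in the shPHF19L#4 list of replicate 1, LHX2 (10.50 and 11.20) and TUBA8 (9.06 and 9.73), both with a shCTR peak over the whole region. Over all regions the share with a shCTR peak in replicate 1 rose with control level, at 11.1%, 30.0%, 53.4% and 84.3% from the lowest to the highest quartile. These regions were chosen after their values were seen.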
